A study of Pleurotus ostreatus with 9 samples.

Results

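Mycelium of the oyster mushroom Pleurotus ostreatus that had received butyl benzyl phthalate (BBP) was compared with mycelium that had received no chemical, across all protein-coding genes with appreciable expression. Of the 10682 genes in the deposited table, 10623 were annotated as mRNA and 59 as tRNA. The comparison took the mRNA genes whose mean level over all 9 libraries of the study was at least 1 FPKM (fragments scaled to transcript length and library depth), which left 9397 genes and set 1226 aside. The gene just inside that limit was PLEOSDRAFT_1051163, at a mean of 1.0014 FPKM, and the gene just outside it was PLEOSDRAFT_1113241, annotated as a versatile peroxidase, at 0.9931 FPKM.

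The study sequenced poly(A) RNA of strain GEMB-PO1, grown in shaken glucose, yeast extract and peptone medium and harvested on day 3, in 3 groups of 3 libraries. The control group had no addition and no solvent control is named, and the BBP group received BBP alone. A further group, given BBP plus 1 mM piperonyl butoxide (PB), which blocks cytochrome P450 enzymes, is not compared here. Its libraries entered the FPKM limit, the scaling and the estimate of the spread between libraries. The labels give the BBP dose as 50 mg/L in one place and 200 mg/L in another, so none is used here, and they state 1 strain, 1 harvest time and 1 batch for all libraries.

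BBP is a plasticizer, an ester of phthalic acid with butanol and benzyl alcohol. Breakdown of such esters by microorganisms usually starts with ester hydrolysis or with oxidation of the side chains, which releases alcohols and aldehydes and leaves an aromatic acid. White-rot fungi such as P. ostreatus degrade lignin, and they are known for oxidizing a wide range of aromatic pollutants with extracellular laccases and peroxidases and with intracellular cytochrome P450 monooxygenases. Flavin and quinone reductases, methyltransferases, glutathione transferases and membrane transporters act on the products.

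The 6 libraries compared held between 41739851 and 49161706 counts each. The labelled tissue, mycelium, was checked by its markers, of which only 1 for vegetative hyphae was found. Hydrophobins named Vmh1, Vmh3 or POH were looked for, and no gene was described by those names. The hydrophobin Vmh2 (PLEOSDRAFT_1091049), a coat protein of vegetative hyphae, was at 570, 611 and 843 FPKM in the control libraries and at 102, 10.5 and 68.3 FPKM with BBP, while the gene described as a fruit-body hydrophobin (PLEOSDRAFT_47325) did not exceed 0.613 FPKM in any of the 6. A pair of genes described as ostreolysin or pleurotolysin, proteins made mainly in fruiting, was low in both groups. PLEOSDRAFT_1090161 was at 4.23, 5.73 and 11.8 FPKM in control and 10.8, 8.64 and 13.4 FPKM with BBP, and PLEOSDRAFT_1090164 at 2.12, 2.21 and 5.53 FPKM and 5.16, 4.15 and 3.86 FPKM. In BBP replicate 2 Vmh2, at 10.5 FPKM, was near PLEOSDRAFT_1090161, at 8.64 FPKM, so the marker check is weak for that library. Among genes that rose by at least 1 log2 unit, the median level stood 1.25, 1.38 and 1.42 log2 units above the control mean in BBP replicates 1, 2 and 3. Those genes were picked by their rise in the same libraries, so medians above the control mean follow from the choice. Among genes that fell by at least 1 log2 unit, BBP replicate 2 was the lowest BBP library for 138 of 222. In bulk RNA of a mycelium, fewer hyphae in a given state and less RNA per hypha cannot be told apart. Most genes carry no descriptive name, so a product given below is the deposited annotation and not a measured activity.

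With BBP 947 genes were higher and 782 were lower, which is 10.1% and 8.32% of the genes tested and 18.4% together (edgeR's quasi-likelihood test, Benjamini-Hochberg adjusted p under 0.05). Changes of at least 1 log2 unit were reached by 320 of the genes that rose and 222 of those that fell, and changes of at least 3 log2 units by 12 and 9. The median change was 0.81 log2 units among genes that rose and -0.73 among those that fell, against -0.01 over all genes. In 1649 of the 1729 called genes (95.4%) the 3 BBP values did not overlap the 3 control values, compared with 34.3% of all genes tested. When library size alone was used for scaling, 684 genes were higher and 1110 lower, and the median over all genes moved to -0.11. The number of called genes fell to 968 without control replicate 2 and to 880 when the model was restricted to the 6 libraries, and the number of lower genes fell to 481 without BBP replicate 1, 511 without BBP replicate 2 and 384 without control replicate 2.

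**Figure D1:**
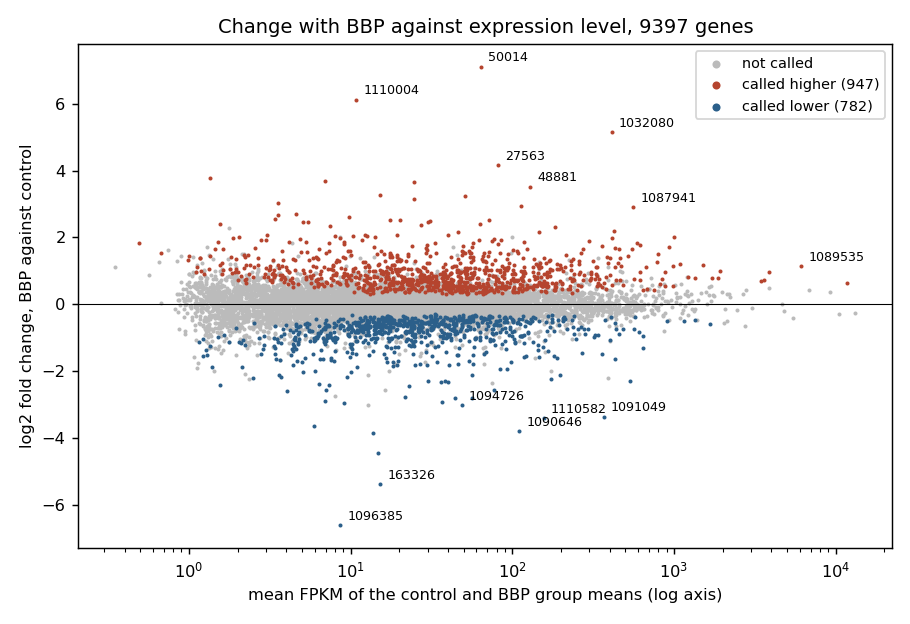
Log2 fold change with BBP against control (vertical axis) for 9397 genes, plotted against expression level (horizontal log axis, FPKM, average of the control and BBP group means). Red points are the 947 genes called higher and blue points the 782 called lower; labels give gene identifiers without their PLEOSDRAFT_ prefix. PLEOSDRAFT_50014 stands highest at 7.10 log2 units and PLEOSDRAFT_1096385 lowest at -6.61.

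Many called genes carried no annotation. A gene was counted as unannotated when it had no informative description, no ontology term beyond the root terms, no KEGG pathway and no enzyme number. This held for 38.4% of all tested genes, 32.4% of all genes called higher and 35.4% of all called lower. Among the larger changes it held for 113 of the 320 genes that rose by at least 1 log2 unit (35.3%) and for 108 of the 222 that fell by that much (48.6%), and these shares were not tested against each other. In the control libraries alone the median level was 27.3 FPKM for genes called higher, 30.4 FPKM for genes called lower and 22.2 FPKM over all genes. Only a small number switched between near absence and clear expression: 3 genes went from under 1 FPKM in control to at least 5 FPKM with BBP, and 3 went the other way.

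The largest rise belonged to PLEOSDRAFT_50014, annotated with NADPH dehydrogenase activity, a flavoenzyme function that reduces quinones and other electron-poor compounds. It stood at 0.762, 0.912 and 1.28 FPKM in the control libraries and at 153, 124 and 105 FPKM in the BBP libraries. The groups were far apart, and the change of 7.10 ± 0.212 log2 units (± SE) had the smallest adjusted p of all genes (1.58e-07). In the group annotated with this activity 5 of 9 tested genes rose and 1 fell, with a median change of 0.85 log2 units. PLEOSDRAFT_1079582 went from 41.4, 41.3 and 29.1 FPKM to 119, 130 and 148 FPKM (1.92 ± 0.199, adjusted p = 0.000434). PLEOSDRAFT_52365, annotated with steroid and FMN binding like the Old Yellow Enzymes of yeast, went from 1.44, 1.71 and 2.55 FPKM to 5.81, 5.86 and 7.43 FPKM (1.85 ± 0.301, adjusted p = 0.00353). Its relatives PLEOSDRAFT_1064182 (1.03 ± 0.182) and PLEOSDRAFT_1108153 (0.59 ± 0.128) rose too, and are named here after their values were seen. The member that fell, PLEOSDRAFT_1061063, is annotated as a dehydrogenase of the inner mitochondrial membrane and also lies outside the naming rule. Its values were 36.7, 35.9 and 30.1 FPKM in control and 21.6, 19.0 and 20.8 FPKM with BBP (-0.65 ± 0.135, adjusted p = 0.011).

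Quinone reductases of the FMN-binding type, which turn quinones into hydroquinones, moved in the same direction. PLEOSDRAFT_41896, annotated as NAD(P)H dehydrogenase (quinone), was already at 500, 528 and 443 FPKM in control and reached 1077, 824 and 1367 FPKM with BBP (1.25 ± 0.19, adjusted p = 0.0026). PLEOSDRAFT_1056411, with the same enzyme number, went from 70.3, 71.4 and 64.7 FPKM to 99.6, 128 and 101 FPKM (0.77 ± 0.137, adjusted p = 0.00518). No value of either gene overlapped between the groups. Of the 21 tested FMN-binding genes, which include PLEOSDRAFT_52365, 8 rose and 0 fell.

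Some oxidases and dehydrogenases that act on alcohols and aldehydes also rose. Of 14 genes of alcohol metabolism 7 rose and 0 fell, with a median change of 0.83 log2 units. Of 30 genes with the enzyme number of a choline dehydrogenase, 3 rose (10.0%, against 10.1% of all genes) and 0 fell. Their median was 0.29 log2 units, and 6 rose without BBP replicate 2. The second largest rise of all belonged to the alcohol metabolism group. PLEOSDRAFT_1110004, annotated as an alcohol oxidase, an enzyme that makes an aldehyde and hydrogen peroxide, was at 0.342, 0.224 and 0.395 FPKM in control and at 29.7, 8.99 and 25.2 FPKM with BBP (6.12 ± 0.471, adjusted p = 0.000134). BBP replicate 2 was the lowest of the BBP libraries for this gene, yet lay more than an order of magnitude above the highest control. The NAD-dependent alcohol dehydrogenase PLEOSDRAFT_1097157 went from 158, 163 and 94.0 FPKM to 415, 379 and 434 FPKM (1.66 ± 0.218, adjusted p = 0.00138). The zinc-type alcohol dehydrogenase PLEOSDRAFT_1091892, 1 of the 6 most expressed genes that rose, went from 1242, 1163 and 1615 FPKM to 2418, 2193 and 2862 FPKM (1.00 ± 0.166, adjusted p = 0.00385). Another member, PLEOSDRAFT_163963, is annotated as carnitine acetyltransferase, which carries acetyl groups between peroxisome and mitochondrion, and went from 69.3, 69.7 and 66.1 FPKM to 158, 199 and 139 FPKM (1.37 ± 0.149, adjusted p = 0.000556).

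Among 30 aldehyde dehydrogenase genes, whose products turn aldehydes into acids, 6 rose and 1 fell, with a median of 0.24 log2 units, and the 1 fall was lost without BBP replicate 1, BBP replicate 3 or control replicate 2 (0 genes each). The clearest member was PLEOSDRAFT_1052335, with the enzyme number of succinate-semialdehyde dehydrogenase, at 19.7, 29.0 and 19.2 FPKM in control and 84.6, 145 and 132 FPKM with BBP (2.52 ± 0.222, adjusted p = 0.000204). The values of the groups did not overlap. PLEOSDRAFT_1090768, with the number of a general aldehyde dehydrogenase, showed the opposite kind of pattern, since control replicate 3 (195 FPKM) lay above BBP replicate 3 (162 FPKM). Its change of 1.20 ± 0.358 log2 units (adjusted p = 0.0437) was not called without BBP replicate 1 (adjusted p = 0.0861), BBP replicate 2 (0.128), control replicate 1 (0.0985) or control replicate 2 (0.101), nor without any 1 of the 3 PB libraries (0.0645, 0.0677 and 0.0679).

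The oxygen-inserting enzymes were led by the P450-type gene PLEOSDRAFT_1032080, at 17.5, 27.5 and 28.7 FPKM in control and 1051, 404 and 944 FPKM with BBP (5.15 ± 0.377, adjusted p = 0.000108). A second gene annotated with monooxygenase activity, PLEOSDRAFT_1047061, went from 1.08, 1.03 and 1.07 FPKM to 17.0, 7.06 and 14.3 FPKM (3.69 ± 0.351, adjusted p = 0.000307). In both genes BBP replicate 2 was less than 0.5 times as high as either other BBP library. The same order held for PLEOSDRAFT_1060777, annotated as an oxygenase that uses 2-oxoglutarate as co-substrate, at 3.24, 2.50 and 3.39 FPKM in control and 36.3, 9.46 and 36.7 FPKM with BBP (3.27 ± 0.462, adjusted p = 0.00184). PLEOSDRAFT_1087941, annotated as an iron- and zinc-binding oxidoreductase that incorporates molecular oxygen, was named after its values were seen. It was expressed at 149, 138 and 130 FPKM in control and reached 1011, 726 and 1190 FPKM with BBP (2.91 ± 0.261, adjusted p = 0.000234).

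Methyl transfer to phenolic hydroxyl groups is a common step by which white-rot fungi handle aromatic compounds. Of 13 tested O-methyltransferase genes 2 rose and 0 fell, with a median of 0.25 log2 units, and 1 fell without control replicate 1. The pair carried the same enzyme number. PLEOSDRAFT_27563 was at 8.37, 10.9 and 8.77 FPKM in control and at 167, 93.1 and 203 FPKM with BBP (4.16 ± 0.399, adjusted p = 0.00032). PLEOSDRAFT_157468 was higher in control, at 145, 148 and 126 FPKM, and reached 345, 256 and 363 FPKM with BBP (1.30 ± 0.191, adjusted p = 0.00222). Thus the gene with the lower level in control had the larger change, and the BBP levels of the pair came within a few fold of each other.

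Genes annotated as ester hydrolases had small median changes, while the shares that rose lay above that of all genes. Whether their products cut BBP was not tested. Of 18 genes annotated with carboxylic ester hydrolase activity 4 rose (22.2%, against 10.1% of all genes) and 0 fell. Their median was 0.08 log2 units, or -0.02 when library size alone was used for scaling, and 2 rose without control replicate 2. Of 33 genes with the enzyme number of a carboxylester hydrolase 5 rose (15.2%) and 1 fell (median 0.15). In that list 3 rose without control replicate 1 or without control replicate 2, and the falls ran from 0 to 2 over the leave-one-out fits. PLEOSDRAFT_170071, an ester hydrolase by its ontology terms but listed with the number of a polymerase, went from 18.4, 11.3 and 17.7 FPKM to 39.2, 58.5 and 30.8 FPKM (1.53 ± 0.266, adjusted p = 0.00473). PLEOSDRAFT_1068771, numbered as a cholinesterase-type hydrolase, went from 37.1, 33.8 and 70.4 FPKM to 104, 116 and 106 FPKM (1.32 ± 0.242, adjusted p = 0.00587). The values of neither gene overlapped between groups.

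**Figure D2:**
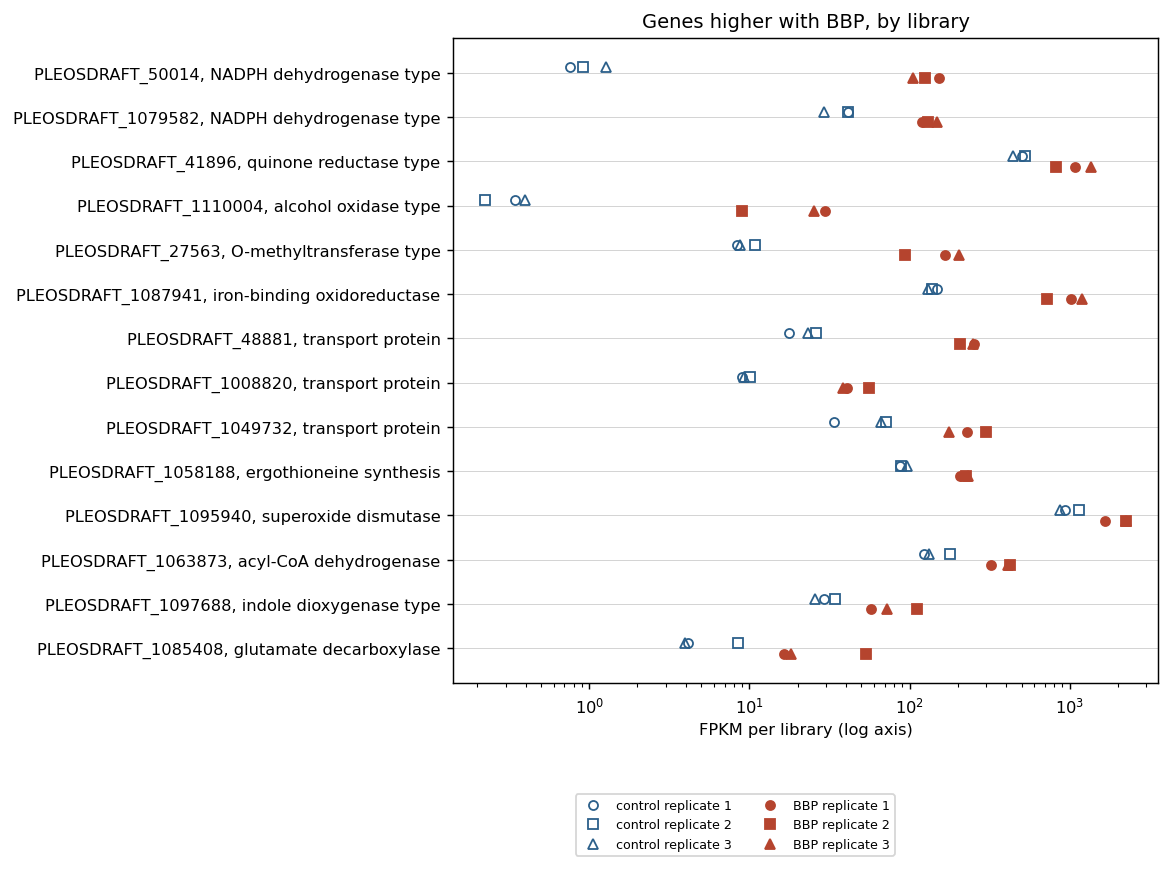
FPKM of 14 genes higher with BBP in each library (horizontal log axis), with open blue symbols for the 3 control and filled red symbols for the 3 BBP libraries. In every gene shown the BBP symbols lie to the right of all control symbols; PLEOSDRAFT_50014 moves from 0.762 to 1.28 FPKM in control to 105 to 153 FPKM with BBP.

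More membrane transport genes rose than fell. Of 142 genes of transmembrane transport 31 rose (21.8%, against 10.1% of all genes) and 5 fell (3.52%, against 8.32%). Their median was 0.18 log2 units. Without PB replicate 3, 20 rose, when 756 of all genes were higher. Without control replicate 2, 16 rose, when 584 of all genes were higher. The falls ran from 2 to 6 over the leave-one-out fits. PLEOSDRAFT_48881, whose substrate the annotation does not give, was at 17.7, 26.0 and 23.2 FPKM in control and at 251, 205 and 249 FPKM with BBP (3.51 ± 0.142, adjusted p = 1.46e-06). PLEOSDRAFT_1008820 went from 8.99, 10.1 and 9.19 FPKM to 40.5, 56.2 and 38.4 FPKM (2.36 ± 0.154, adjusted p = 6.03e-05). Likewise PLEOSDRAFT_1049732 went from 33.5, 71.5 and 66.4 FPKM to 228, 298 and 177 FPKM (2.16 ± 0.251, adjusted p = 0.000771) and is named after its values were seen. The ABC-type drug export gene PLEOSDRAFT_1056093 rose from 8.35, 12.2 and 9.51 FPKM to 49.8, 61.6 and 45.3 FPKM (2.50 ± 0.157, adjusted p = 5.43e-05). Each of the 4 genes kept its call in every leave-one-out fit.

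Enzymes against reactive oxygen and electrophiles rose in part. Glutathione transferases, which couple glutathione to electrophiles, had 5 of 12 members higher and 0 lower, with a median of 0.74 log2 units. In PLEOSDRAFT_1113463 the FPKM went from 263, 373 and 252 to 983, 568 and 1237 (1.76 ± 0.265, adjusted p = 0.00246). Of 14 antioxidant enzyme genes 5 rose and 1 fell, with a median of -0.02, and 3 rose without BBP replicate 3, control replicate 2 or control replicate 3. Superoxide dismutase PLEOSDRAFT_1095940, which turns superoxide into hydrogen peroxide, went from 933, 1137 and 864 FPKM to 1661, 2245 and 2256 FPKM (1.18 ± 0.163, adjusted p = 0.00174). Catalase PLEOSDRAFT_1090819, which removes the peroxide, went from 207, 184 and 265 FPKM to 780, 370 and 796 FPKM (1.67 ± 0.283, adjusted p = 0.00426). Glutathione reductase PLEOSDRAFT_1052717, which restores reduced glutathione, went from 84.7, 91.8 and 76.7 FPKM to 144, 139 and 164 FPKM (0.92 ± 0.125, adjusted p = 0.00155). The gene that fell was the abundant PLEOSDRAFT_1059662, numbered as a peroxiredoxin, at 1390, 1893 and 1551 FPKM in control and 977, 1168 and 1088 FPKM with BBP. Its change of -0.47 ± 0.127 log2 units (adjusted p = 0.0308) was not called without BBP replicate 1 (adjusted p = 0.098), BBP replicate 3 (0.0655), PB replicate 1 (0.0526), PB replicate 3 (0.0508) or control replicate 2 (0.108).

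Low-molecular-weight protection was represented by PLEOSDRAFT_1058188, annotated for synthesis of ergothioneine, a sulfur-containing histidine derivative that fungi use as an antioxidant. It was chosen after its values were seen. Its levels were tight within groups, at 87.6, 88.6 and 97.0 FPKM in control and 207, 226 and 232 FPKM with BBP (1.39 ± 0.107, adjusted p = 0.000134). In contrast PLEOSDRAFT_1094410, with the number of glutamate-cysteine ligase, the first enzyme of glutathione synthesis, went from 32.6, 46.8 and 25.0 FPKM to 15.1, 14.9 and 15.0 FPKM (-1.11 ± 0.212, adjusted p = 0.00721).

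Genes annotated to fatty acid metabolism, a list not limited to breakdown enzymes, formed the group with the highest share of rises among the groups examined. Fungal peroxisomes shorten fatty acids by beta-oxidation and need peroxins, the proteins that build the organelle and import its enzymes. Of 13 genes annotated to fatty acid metabolism 11 rose and 0 fell, with a median of 0.76 log2 units, and the leave-one-out fits gave between 8 and 11. The long-chain acyl-CoA ligase PLEOSDRAFT_37195, which activates fatty acids, went from 42.9, 57.3 and 56.0 FPKM to 118, 157 and 135 FPKM (1.51 ± 0.131, adjusted p = 0.000188). The thiolase PLEOSDRAFT_1054697, which releases acetyl-CoA in the last step, went from 684, 779 and 630 FPKM to 1205, 1552 and 1715 FPKM (1.20 ± 0.167, adjusted p = 0.00173). The most abundant member, the oleate hydratase PLEOSDRAFT_1094779, was named after its values were seen and went from 1537, 1199 and 1539 FPKM to 2273, 2312 and 2314 FPKM (0.79 ± 0.146, adjusted p = 0.0063).

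Several members of that group are peroxins by their orthology numbers. PLEOSDRAFT_1054531, a PEX3-type gene whose product starts membrane assembly in yeast, went from 15.2, 19.6 and 18.4 FPKM to 35.9, 31.9 and 33.4 FPKM (1.04 ± 0.102, adjusted p = 0.000373). The other peroxins given here were named after their values were seen. The PEX6-type PLEOSDRAFT_42467, an ATPase that helps recycle the import receptor in yeast, rose by 0.80 ± 0.115 log2 units. It overlaps another gene model, and the strand setting of the counting is not given in the sources used here, so its reads may be shared. The PEX7-type receptor PLEOSDRAFT_1093717 (0.56 ± 0.145), the PEX13-type docking gene PLEOSDRAFT_1090941 (0.55 ± 0.115) and the PEX2-type PLEOSDRAFT_1076094 (0.48 ± 0.121) rose by less. The PEX7-type gene was not called without BBP replicate 2 (adjusted p = 0.0559), control replicate 1 (0.0661) or control replicate 2 (0.0803). The PEX2-type gene was not called without BBP replicate 1 (adjusted p = 0.0627), control replicate 1 (0.0512) or control replicate 2 (0.0533), and neither was called when library size alone was used for scaling.

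Acyl-CoA dehydrogenases, which carry out the first oxidation of the beta-oxidation cycle, moved the same way. Of 14 tested genes 9 rose and 0 fell, with a median of 0.66 log2 units, and 5 rose without BBP replicate 2 or without control replicate 2. PLEOSDRAFT_1063873 went from 123, 179 and 132 FPKM to 324, 423 and 413 FPKM (1.53 ± 0.156, adjusted p = 0.000434). PLEOSDRAFT_1044473 went from 28.6, 40.0 and 35.5 FPKM to 59.8, 95.6 and 75.5 FPKM (1.26 ± 0.164, adjusted p = 0.00135). PLEOSDRAFT_1114153, numbered as the peroxisomal acyl-CoA oxidase type, went from 14.9, 24.8 and 19.6 FPKM to 36.6, 43.8 and 34.3 FPKM (1.07 ± 0.158, adjusted p = 0.00226). The groups did not overlap in any of the 3. In the KEGG peroxisome pathway, which shares members with both groups, 37 of 70 rose and 1 fell, and the median library levels ran from -0.27 to -0.25 in the controls and from 0.15 to 0.37 with BBP, in log2 units around each gene's mean over the 6 libraries.

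Acetyl-CoA from such reactions can be returned to sugar through the glyoxylate cycle and gluconeogenesis. Of 10 genes annotated to gluconeogenesis 6 rose and 0 fell, with a median of 0.50 log2 units and counts of 4 to 5 over the leave-one-out fits. Malate synthase PLEOSDRAFT_1089338, a glyoxylate cycle enzyme, went from 3040, 2528 and 2703 FPKM to 4085, 4655 and 3845 FPKM (0.70 ± 0.151, adjusted p = 0.0126), not called without control replicate 2 (adjusted p = 0.0539). Phosphoenolpyruvate carboxykinase PLEOSDRAFT_1089535 was already among the most expressed genes and went from 4320, 4185 and 3559 FPKM to 8070, 8720 and 7923 FPKM (1.13 ± 0.149, adjusted p = 0.00139). Next to it lie PLEOSDRAFT_1089538 (1.01 ± 0.136) and PLEOSDRAFT_1089539 (0.83 ± 0.142), with the same enzyme number but levels of 22.5 to 34.0 FPKM in control. The description of the last names the first, so part of their counts may come from reads of the abundant gene. All 3 are among the 6 gluconeogenesis genes that rose, and PLEOSDRAFT_1089535 and PLEOSDRAFT_1089538 also enter the citrate cycle count below, so these counts are not of independent genes.

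Central carbon genes rose more unevenly. In the citrate cycle 12 of 37 rose and 4 fell (median 0.13), and 6 rose without control replicate 2 while 2 fell without BBP replicate 3. Glyceraldehyde 3-phosphate dehydrogenase PLEOSDRAFT_1090663, shared by sugar breakdown and synthesis, went from 2712, 2979 and 2911 FPKM to 4615, 4391 and 4127 FPKM (0.71 ± 0.115, adjusted p = 0.00334). The phosphoketolase gene PLEOSDRAFT_1090331, whose enzyme splits sugar phosphates to acetyl phosphate, was named after its values were seen and went from 1396, 1159 and 1393 FPKM to 2276, 2001 and 2092 FPKM (0.79 ± 0.153, adjusted p = 0.00784). Of 17 glucose transporter genes 5 rose and 0 fell (median 0.45), with 3 without BBP replicate 1 and 2 without BBP replicate 3 or without control replicate 2. PLEOSDRAFT_1095022 was at 13.9, 18.0 and 14.9 FPKM in control and 36.6, 59.1 and 58.6 FPKM with BBP (1.83 ± 0.202, adjusted p = 0.000604).

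Some genes of amino acid breakdown pathways also rose, while most members did not pass the test. Of 56 genes in the tryptophan metabolism pathway 21 rose (37.5%, against 10.1% of all genes) and 1 fell. Their median was 0.33 log2 units, and 13 rose without BBP replicate 3 and 12 without control replicate 2 or when scaled by library size alone. Indoleamine 2,3-dioxygenase opens the indole ring in the first step of the kynurenine route. Of the genes with that enzyme number, PLEOSDRAFT_1097688 went from 29.3, 34.0 and 25.7 FPKM to 57.7, 111 and 72.4 FPKM (1.54 ± 0.23, adjusted p = 0.00235), and PLEOSDRAFT_1047331 from 80.4, 83.5 and 83.2 FPKM to 145, 167 and 148 FPKM (1.00 ± 0.103, adjusted p = 0.000434). The ontology terms of both name a different enzyme, so the product is uncertain. The member that fell, the nitrilase-type gene PLEOSDRAFT_1057607, went from 210, 166 and 71.9 FPKM to 34.5, 25.5 and 50.5 FPKM (-1.94 ± 0.446, adjusted p = 0.016), not called without BBP replicate 1 (adjusted p = 0.0572) or BBP replicate 2 (0.0518). Of 51 genes of branched-chain amino acid degradation 14 rose (27.5%) and 0 fell, with a median of 0.32 log2 units and 11 to 15 over the leave-one-out fits. Both pathways share members with groups above, so their counts are not of separate genes. Catalase PLEOSDRAFT_1090819 is in tryptophan metabolism, and the acyl-CoA dehydrogenase PLEOSDRAFT_1063873 is in branched-chain degradation.

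Several genes for steps around glutamate rose with BBP. Glutamate decarboxylase makes gamma-aminobutyrate, whose carbon re-enters the citrate cycle through succinate semialdehyde. PLEOSDRAFT_1085408, with that enzyme number, stood at 4.13, 8.53 and 3.97 FPKM in control and at 16.5, 53.4 and 18.3 FPKM with BBP (2.52 ± 0.479, adjusted p = 0.00694), with BBP replicate 2 far above the others. The genes of the next 3 sentences were chosen after their values were seen. A second decarboxylase, PLEOSDRAFT_174888, went from 24.9, 25.1 and 17.8 FPKM to 35.4, 33.9 and 52.6 FPKM (0.94 ± 0.205, adjusted p = 0.013). The aminotransferase of the following step, PLEOSDRAFT_1078885, was at 35.6, 42.0 and 49.7 FPKM in control and 52.5, 50.3 and 53.1 FPKM with BBP (0.41 ± 0.106, adjusted p = 0.0272), not called without BBP replicate 1 (adjusted p = 0.0648), BBP replicate 3 (0.0689), PB replicate 3 (0.0501), control replicate 1 (0.0692) or control replicate 2 (0.0846). The NAD-type glutamate dehydrogenase PLEOSDRAFT_40761, which links glutamate to the citrate cycle, went from 123, 97.3 and 88.8 FPKM to 197, 259 and 266 FPKM (1.32 ± 0.207, adjusted p = 0.00313).

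Other nitrogen-handling enzymes rose in part. In the nitrogen metabolism pathway 8 of 25 rose and 2 fell, with a median of 0.13 log2 units, and 5 rose without BBP replicate 1, BBP replicate 3, PB replicate 1 or PB replicate 2. The 2 falls became 0 without BBP replicate 1 or BBP replicate 2 and 1 without PB replicate 3, control replicate 1 or control replicate 2. Carbonic anhydrase PLEOSDRAFT_1015126, which interconverts carbon dioxide and bicarbonate, went from 4.96, 6.22 and 4.33 FPKM to 18.0, 13.4 and 23.1 FPKM (1.91 ± 0.258, adjusted p = 0.00153). A nitronate monooxygenase gene, PLEOSDRAFT_1057078, which was named after its values were seen, went from 194, 304 and 203 FPKM to 520, 907 and 623 FPKM (1.66 ± 0.221, adjusted p = 0.00146). Most genes that charge transfer RNAs did not pass the test, with 3 higher and 2 lower of 45, and 5 were higher without control replicate 3 while 4 were lower without BBP replicate 3 and 1 without control replicate 2. The exception in size was PLEOSDRAFT_1047685, with the number of aspartyl-tRNA synthetase, at 158, 172 and 160 FPKM in control and 586, 909 and 574 FPKM with BBP (2.18 ± 0.188, adjusted p = 0.000188).

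Of the 8 largest falls, 6 were in genes without any annotation. PLEOSDRAFT_1096385 was at 28.0, 10.1 and 13.2 FPKM in control and at 0.175, 0.292 and 0 FPKM with BBP, where 1 library had no reads (-6.61 ± 0.788, adjusted p = 0.0018). PLEOSDRAFT_163326 went from 54.1, 10.6 and 24.7 FPKM to 0.945, 0.583 and 0.528 FPKM (-5.39 ± 0.665, adjusted p = 0.00105). In both, and in PLEOSDRAFT_1112562 (60.5, 17.6 and 6.61 FPKM in control, -4.46 ± 0.768) and PLEOSDRAFT_1088881 (42.0, 15.6 and 19.6 FPKM in control, -3.84 ± 0.446), control replicate 1 was the highest library. Another pair had even control levels and was lowest in BBP replicate 2. PLEOSDRAFT_1090646 went from 174, 206 and 242 FPKM to 22.1, 5.52 and 13.9 FPKM (-3.79 ± 0.414, adjusted p = 0.000556). PLEOSDRAFT_1110582 went from 268, 305 and 289 FPKM to 36.4, 10.5 and 28.4 FPKM (-3.41 ± 0.372, adjusted p = 0.000556). Only PLEOSDRAFT_155791 among the 8 largest falls carries enzyme terms, those of an endoribonuclease of the vacuole and the cell exterior, and it went from 17.9, 4.02 and 11.3 FPKM to 0.798, 0.461 and 1.27 FPKM (-3.65 ± 0.575, adjusted p = 0.00313).

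The eighth was Vmh2, a hydrophobin, one of the small secreted proteins that coat hyphae and make them water-repellent. It changed by -3.37 ± 0.697 log2 units between the values given above (adjusted p = 0.0104), again with BBP replicate 2 lowest. Of 15 hydrophobin genes tested 0 rose and 4 fell, and 1 rose without control replicate 1 or control replicate 3. Hydrophobin 3, PLEOSDRAFT_1114379, went from 30.7, 66.4 and 107 FPKM to 11.0, 13.8 and 12.4 FPKM (-2.32 ± 0.353, adjusted p = 0.0026). The class I gene PLEOSDRAFT_163649 went from 31.0, 31.2 and 89.3 FPKM to 13.5, 4.28 and 10.5 FPKM (-2.29 ± 0.524, adjusted p = 0.022), not called without BBP replicate 3 (adjusted p = 0.0538). The median of the family was 0.05 log2 units and turned to -0.05 when scaled by library size alone and to -0.30 with limma on log2(FPKM + 1).

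Unannotated genes also supplied the falls with the smallest adjusted p. PLEOSDRAFT_1094726 went from 61.8, 85.8 and 114 FPKM to 12.6, 7.60 and 9.37 FPKM (-3.02 ± 0.222, adjusted p = 0.000108). PLEOSDRAFT_174969 went from 70.9, 58.6 and 65.8 FPKM to 8.66, 5.34 and 10.4 FPKM (-2.91 ± 0.246, adjusted p = 0.000188). The values were more than 4-fold apart between the nearest libraries of the 2 groups in both genes.

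**Figure D3:**
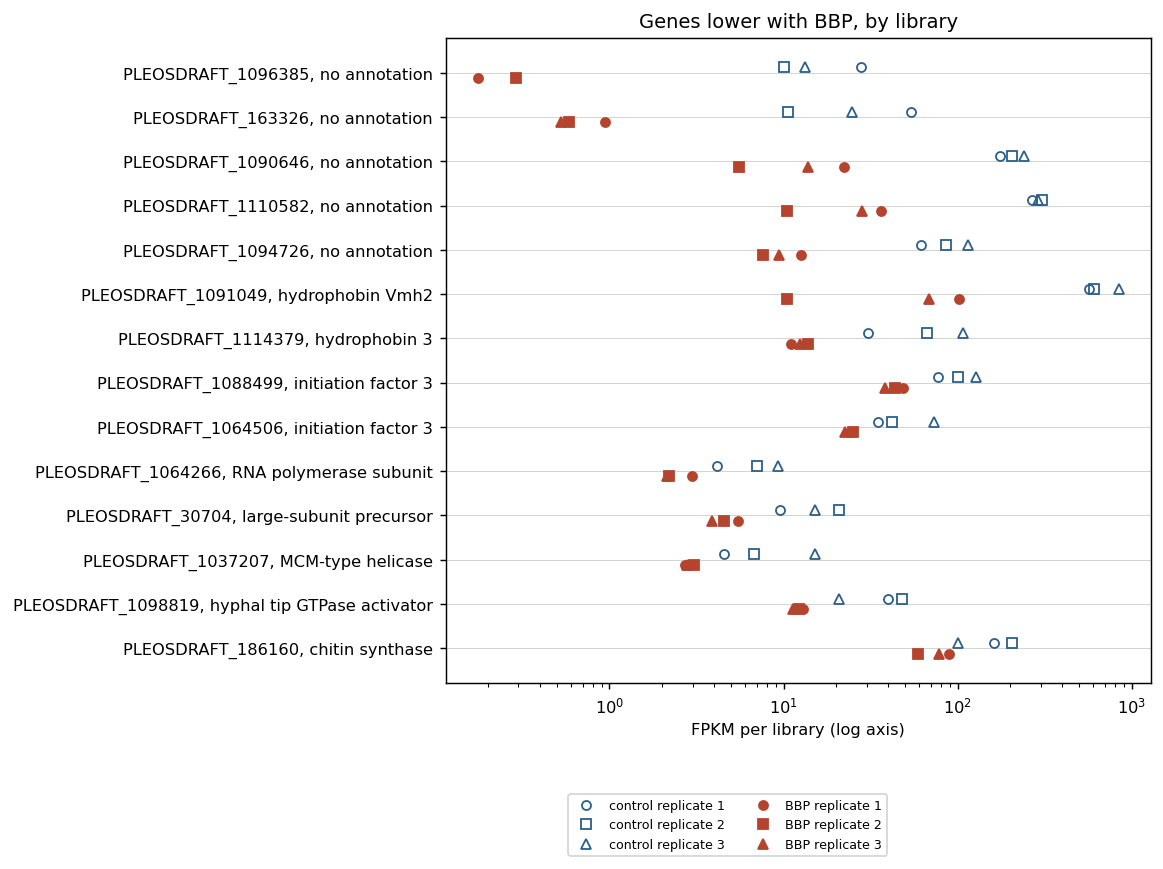
FPKM of 14 genes lower with BBP in each library (horizontal log axis), with open blue symbols for control and filled red symbols for BBP. The BBP symbols lie to the left of all control symbols in every gene; BBP replicate 3 of PLEOSDRAFT_1096385 had 0 FPKM and cannot be drawn on a log axis.

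Beside these single genes, some groups that serve protein synthesis were lower with BBP by modest amounts. Genes that charge transfer RNAs, given above, were not, with 3 higher and 2 lower of 45 and a median of 0.05 log2 units. Eukaryotic initiation factor 3 is the complex that readies the small ribosomal subunit for messenger RNA, and 6 of its 10 tested genes fell while 0 rose, with a median of -0.70 log2 units. PLEOSDRAFT_1088499 went from 76.9, 100 and 128 FPKM to 48.7, 43.5 and 38.5 FPKM (-1.10 ± 0.175, adjusted p = 0.00323). PLEOSDRAFT_1064506 went from 34.9, 42.2 and 73.2 FPKM to 24.4, 25.2 and 22.6 FPKM (-0.94 ± 0.206, adjusted p = 0.0134). Control replicate 3 was the highest library for both. The group's median level was 0.68 log2 units above the gene means in control replicate 3, 0.06 and 0.15 in control replicates 1 and 2, and -0.38 to -0.26 with BBP. Without control replicate 3 the number of genes that fell was 5, and it was 6 when BBP replicate 2 was left out with it.

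Genes for maturing the large ribosomal subunit behaved likewise, with 11 of 26 lower and 1 higher and a median of -0.46 log2 units; 7 fell without BBP replicate 3 or without control replicate 2. PLEOSDRAFT_30704 went from 9.55, 20.9 and 15.1 FPKM to 5.48, 4.57 and 3.89 FPKM (-1.58 ± 0.269, adjusted p = 0.0043). PLEOSDRAFT_1057836 went from 27.2, 46.4 and 54.8 FPKM to 17.0, 19.5 and 13.6 FPKM (-1.23 ± 0.242, adjusted p = 0.00829). Of 31 RNA polymerase genes 6 fell and 0 rose, with a median of -0.30. They included subunits of RNA polymerase I, which transcribes ribosomal RNA. PLEOSDRAFT_1064266 was at 4.12, 7.05 and 9.24 FPKM in control and 2.98, 2.19 and 2.15 FPKM with BBP (-1.35 ± 0.24, adjusted p = 0.00521), and PLEOSDRAFT_26355 was at 8.64, 15.3 and 15.8 FPKM in control and 7.55, 5.61 and 5.56 FPKM with BBP (-0.96 ± 0.195, adjusted p = 0.00954). Control replicate 1 was the control library nearest to the BBP values in all of these genes.

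Genes annotated as binding replication origins were the group in which a single control library stood out most. Of 12 genes annotated as binding replication origins, among them subunits of the MCM helicase and of the origin recognition complex, 6 fell and 0 rose, with a median of -0.95 log2 units, and 3 fell without BBP replicate 2, 4 without control replicate 3 and 3 without both. It was 2 with a minimum of 5 FPKM and 3 in the model of the 6 libraries alone, and 1 gene rose without control replicate 3. Control replicate 3 lay 1.13 log2 units above the gene means, against 0.00 and 0.15 in the other control libraries and -0.56 to -0.28 with BBP. The MCM-type gene PLEOSDRAFT_1037207 was at 4.57, 6.76 and 15.1 FPKM in control and 2.70, 3.06 and 2.79 FPKM with BBP (-1.49 ± 0.33, adjusted p = 0.0138). PLEOSDRAFT_1035453, also MCM-type, was at 3.78, 4.47 and 11.1 FPKM in control and 1.58, 2.62 and 3.20 FPKM with BBP (-1.25 ± 0.376, adjusted p = 0.0445), not called without control replicate 3 (adjusted p = 0.103), BBP replicate 1 (0.123), BBP replicate 2 (0.0905) or any 1 PB library (0.0654, 0.0656 and 0.0691). PLEOSDRAFT_1098752 of the same group had even control values of 4.99, 6.36 and 7.66 FPKM and was at 2.83, 2.48 and 2.97 FPKM with BBP (-1.08 ± 0.171, adjusted p = 0.00313). The group also holds the 14-3-3-type gene PLEOSDRAFT_1093096, described below with the regulators. In the wider KEGG pathway of DNA replication, which shares members with this group, 6 of 49 fell (12.2%, against 8.32% of all genes) and 1 rose. Its median was -0.35 log2 units, and 3 fell without BBP replicate 2, BBP replicate 3 or control replicate 2.

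**Figure D4:**
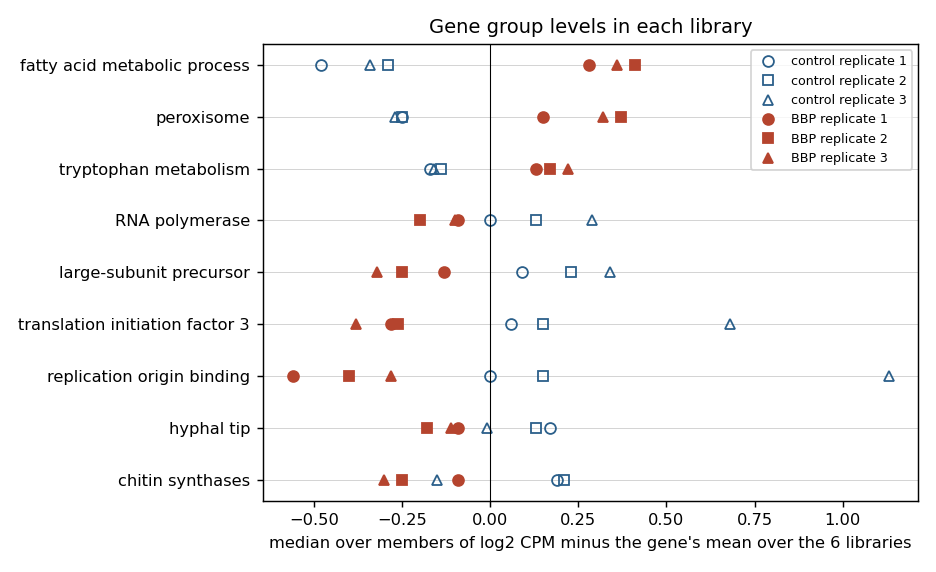
Median level of 9 gene groups in each of the 6 libraries (horizontal axis, log2 CPM minus the gene's mean over the 6 libraries, median over members), with open blue symbols for control and filled red symbols for BBP. Control replicate 3 stands at 1.13 for replication origin binding and 0.68 for initiation factor 3, apart from the other controls, while the 3 controls lie close together for the peroxisome.

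Some genes of transport between endoplasmic reticulum and Golgi, of the hyphal tip and of the cell wall fell, while most members of these groups did not pass the test. In transport from endoplasmic reticulum to Golgi 10 of 46 fell and 1 rose, with a median of -0.12 log2 units, and 6 fell without BBP replicate 2, control replicate 2 or any 1 PB library. In retrograde transport from Golgi to endoplasmic reticulum 6 of 18 fell and 0 rose, with a median of -0.36 log2 units, and the count was 3 without BBP replicate 1 or PB replicate 3 and 2 without control replicate 2. The member PLEOSDRAFT_1067068 went from 66.1, 80.6 and 92.5 FPKM to 53.4, 52.0 and 46.1 FPKM (-0.55 ± 0.11, adjusted p = 0.00913). Of 28 genes annotated to the hyphal tip, where filamentous fungi extend, 10 fell and 0 rose, with a median of -0.28. That count depended on every library but control replicate 3: it was 4 without control replicate 1, 3 without control replicate 2, 3, 3 and 2 without BBP replicates 1, 2 and 3, and 6, 4 and 4 without PB replicates 1, 2 and 3. PLEOSDRAFT_1098819, a GTPase activator of septum and tip, kept its call throughout, from 39.9, 48.0 and 20.9 FPKM to 12.9, 12.3 and 11.4 FPKM (-1.48 ± 0.259, adjusted p = 0.00501).

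Chitin synthases make the main structural fibre of the fungal wall, and 3 of 9 fell while 0 rose, with a median of -0.26 log2 units. All 3 calls sat close to the threshold. The largest change was in PLEOSDRAFT_186160, at 161, 205 and 99.9 FPKM in control and 88.7, 59.2 and 78.1 FPKM with BBP (-0.94 ± 0.264, adjusted p = 0.0348). The count of falls was 0 without any 1 of the 3 BBP libraries, control replicate 1, control replicate 2 or PB replicate 2, and 1 without PB replicate 1 or 3. Of 46 genes annotated to cell wall organization 8 fell and 3 rose, with a median of -0.22 log2 units. The falls numbered 3 without BBP replicate 1 or 3, 2 without control replicate 2, 4 without PB replicate 3, and 5 without BBP replicate 2, control replicate 1 or PB replicate 1 or 2. The exo-glucanase-type gene PLEOSDRAFT_60667, went from 399, 470 and 434 FPKM to 280, 181 and 182 FPKM (-0.92 ± 0.181, adjusted p = 0.0086) and kept its call in every leave-one-out fit. Among those that rose, PLEOSDRAFT_1095040, numbered as an endoglucanase, went from 12.5, 15.1 and 14.6 FPKM to 21.8, 32.9 and 19.7 FPKM (0.93 ± 0.174, adjusted p = 0.0065). PLEOSDRAFT_1108722 went from 27.9, 34.4 and 37.1 FPKM to 50.7, 48.6 and 46.2 FPKM (0.66 ± 0.0963, adjusted p = 0.00213). Both were also called in every leave-one-out fit.

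**Figure D5:**
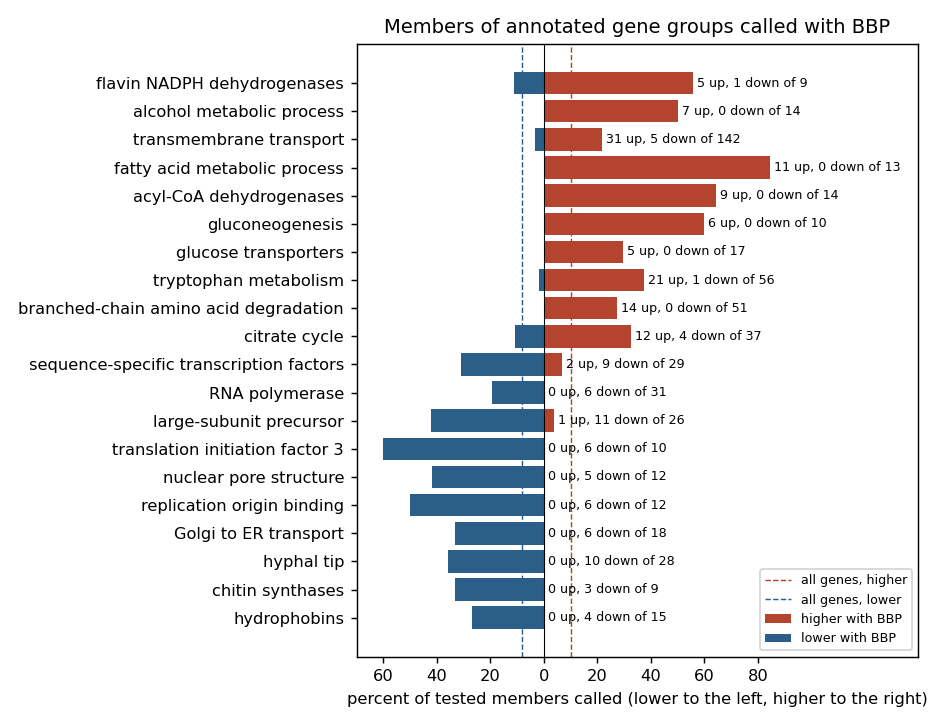
Share of tested members called higher (red, to the right) and lower (blue, to the left) with BBP in 20 annotated gene groups, with the counts beside each bar. Dashed lines mark the shares over all tested genes, 10.1% higher and 8.32% lower; fatty acid metabolism reaches 84.6% higher and initiation factor 3 reaches 60.0% lower.

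Among regulators the changes were mixed. Of 29 sequence-specific transcription factor genes 2 rose and 9 fell, with a median of -0.08 log2 units, and 5 fell without BBP replicate 1, BBP replicate 3, PB replicate 3 or control replicate 2. PLEOSDRAFT_176657 was the clearest riser, from 4.60, 4.63 and 3.69 FPKM to 13.7, 16.4 and 11.6 FPKM (1.79 ± 0.176, adjusted p = 0.000373). PLEOSDRAFT_1073145 was the clearest to fall, from 4.72, 5.57 and 11.6 FPKM to 2.46, 2.15 and 1.52 FPKM (-1.71 ± 0.338, adjusted p = 0.00834). In the MAPK signalling pathway, which passes external signals to the nucleus, 10 of 124 rose and 13 fell, shares near those of all genes, and the number that fell was 8 without BBP replicate 1 or control replicate 2 and 21 without control replicate 3. A heterotrimeric G-protein gene of that pathway, PLEOSDRAFT_1045361, went from 57.3, 67.7 and 34.9 FPKM to 17.4, 10.6 and 16.7 FPKM (-1.74 ± 0.264, adjusted p = 0.00256). The abundant PLEOSDRAFT_1093096, a 14-3-3-type gene by its orthology number, went from 732, 830 and 825 FPKM to 379, 436 and 439 FPKM (-0.82 ± 0.104, adjusted p = 0.00125). The shares for autophagy genes lay below the 10.1% higher and 8.32% lower over all genes. Of 108 autophagy genes 10 rose (9.26%) and 6 fell (5.56%), with 6 and 2 without BBP replicate 1 and 5 and 1 without control replicate 2. One of them, PLEOSDRAFT_31354, a subtilisin-type vacuolar protease by its number, was among the 8 largest rises that met the naming rule, from 4.41, 3.68 and 3.39 FPKM to 33.2, 88.3 and 15.4 FPKM (3.66 ± 0.545, adjusted p = 0.00236), with the BBP libraries spread over more than 5-fold.

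Some called genes lay side by side. In the deposited gene order 20 runs of at least 3 adjacent mRNA genes were all higher and 14 runs were all lower with BBP, 110 genes in total, and the longest run had 5 genes, all lower. No expected number of runs was computed. In 1 run of 4 genes on the same strand within 8.05 kb, PLEOSDRAFT_1074359 (0.89 ± 0.202) and PLEOSDRAFT_60976 (0.92 ± 0.182) lie next to PLEOSDRAFT_1035254, a CYP51-type P450 gene of ergosterol synthesis, and to the alcohol dehydrogenase PLEOSDRAFT_1091892. PLEOSDRAFT_1035254 went from 162, 171 and 194 FPKM to 327, 379 and 209 FPKM (0.90 ± 0.198, adjusted p = 0.0134), with BBP replicate 3 just above the controls, and it was not called without control replicate 2 (adjusted p = 0.0512). Other CYP51-type genes are not described here. Another run of 3 held oxygenase genes that fell together. PLEOSDRAFT_1034967, annotated with peroxidase terms and the number of a prostaglandin synthase, was at 167, 43.1 and 24.3 FPKM in control and 10.0, 3.99 and 18.8 FPKM with BBP (-2.80 ± 0.753, adjusted p = 0.0299). Its neighbour PLEOSDRAFT_1091949, numbered as a linoleate dioxygenase, was at 84.2, 18.5 and 10.9 FPKM in control and 4.78, 4.21 and 7.26 FPKM with BBP (-2.78 ± 0.691, adjusted p = 0.022). On the other side of PLEOSDRAFT_1034967, PLEOSDRAFT_1111081, numbered as lactate monooxygenase, changed by -1.80 ± 0.528 (adjusted p = 0.0412). Control replicate 1 was the highest library for all 3. Without it the adjusted p was 0.0848 for PLEOSDRAFT_1034967 and 0.114 for PLEOSDRAFT_1111081, and PLEOSDRAFT_1091949 was not called without BBP replicate 1 (0.0725) or BBP replicate 2 (0.0685). Without BBP replicate 1 and BBP replicate 2 in turn the adjusted p was 0.0894 and 0.0755 for PLEOSDRAFT_1034967 and 0.114 and 0.112 for PLEOSDRAFT_1111081. The latter was also not called without control replicate 2 (0.0512) or any 1 PB library (0.0596, 0.0617 and 0.0646). The genes of the 2 runs other than PLEOSDRAFT_1091892, PLEOSDRAFT_1035254 and PLEOSDRAFT_1091949 were chosen after their values were seen.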

How the data were processed

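Poly(A) RNA of 9 libraries was analysed. Per the submitters' processing notes the authors used fastp, HISAT2 and StringTie; their versions, the read counter and its use of strand, the build and the gene annotation are not given in the sources used. The deposited table holds whole-number read counts per gene and FPKM values per gene, both made by the authors. Counts were tested and FPKM gave levels. The mRNA genes averaging 1 FPKM or more across 9 libraries entered a single 3-group model with TMM scaling in edgeR 4.0.16 (limma 3.58.1, R 4.3.3), common biological coefficient of variation 0.201. Tests were 2-sided with Benjamini-Hochberg adjustment over 9397 genes, and genes were called at 0.05. SE was the log2 change divided by the square root of F. Changes are log2(BBP) minus log2(control), and "leave-one-out" means a fit without 1 of the 9 libraries. Alternatives were DESeq2 1.42.0, library size scaling, no FPKM minimum, a minimum of 5 FPKM, limma on log2(FPKM + 1) with a pseudocount of 1, the 6 libraries alone and a replicate block. The test was checked on simulated data with known changes, where small changes were found less often than large ones.

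The series design calls the libraries biological replicates, but cultures are not labelled one by one, so p-values measure the spread between these libraries. The 52 gene groups were read from the ontology, KEGG, enzyme number and description columns and overlap in part. Genes named were drawn from the 8 largest rises and falls without overlap and with at least 5 FPKM in the higher group, the 6 most expressed called genes and the 6 smallest adjusted p in each direction, and up to 3 called members of a group. Not every gene that met this rule is described, and genes named outside it are marked. Members, groups and naming rule were chosen with earlier results of these data known. None of the identifiers matched the 11849 genes of the reference table (0 matched), so no sequence is shown.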

Additional observations from a re-analysis of the deposited data

How the results depend on the processing

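The number of genes called moved by more than 1.5 times when the model held only the 6 libraries compared (880 called, 515 higher and 365 lower), and on log2(FPKM + 1) values the genes higher by at least 1 log2 unit numbered 194. Over the fits that left out 1 of the 9 libraries, 968 to 1855 genes were called, 584 to 942 higher and 384 to 913 lower, with 136 to 291 lower by at least 1 log2 unit (low ends without control replicate 2, high ends without control replicate 3). The lower genes were also 481 without BBP replicate 1 and 511 without BBP replicate 2, and those lower by at least 1 log2 unit 144 without BBP replicate 2. No gene called in the main analysis changed sign in any alternative run. The naming rule and the choices beside it gave 185 genes, not all of which are described in the text. Of these 185 genes, 43 were not called with the 6 libraries alone, 9 with library size scaling, 12 with limma and 35 without control replicate 2. No clear pairing by replicate number was seen between control and BBP: the deviations of libraries with the same number correlated at 0.0116, -0.0293 and -0.1. The values were 0.136, -0.0596 and 0.156 for control and PB libraries, and 0.0371, -0.144 and -0.0228 for BBP and PB libraries. The labels do not say whether replicate numbers mark a shared day or culture. With the replicate block 1391 genes were called (802 higher and 589 lower). Leaving out control replicate 3 and BBP replicate 2 together, chosen after seeing the data, gave 1948 genes (1058 higher and 890 lower). Without the FPKM minimum, 5 more genes were higher and 10 more lower among those set aside. No outlier test was run within the groups of 3 libraries, and a gene that missed the threshold is not shown to be unchanged.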

Other observations

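Genes of cysteine and methionine metabolism and of aromatic amino acid synthesis changed in both directions in small numbers. In the former 2 rose and 3 fell of 49, with 4 rises without BBP replicate 2 or 3, 5 without control replicate 3 and 1 without control replicate 2, and with 6 falls without control replicate 1 and 1 without BBP replicate 3 or control replicate 2. In the latter 3 rose and 1 fell of 24, and the fall was 0 without BBP replicate 1, BBP replicate 2 or control replicate 1. The aminotransferase genes PLEOSDRAFT_1038696 (1.09 ± 0.173, adjusted p = 0.00326) and PLEOSDRAFT_1052049 (0.57 ± 0.133, adjusted p = 0.0174) belong to both groups and rose, the latter not called without control replicate 2 (0.0675). S-adenosylmethionine synthetase supplies the methyl groups that O-methyltransferases transfer, and the gene with its enzyme number, PLEOSDRAFT_1052256, was at 1005, 1192 and 1114 FPKM in control and 731, 772 and 652 FPKM with BBP (-0.51 ± 0.118, adjusted p = 0.016). It was not called without BBP replicate 3 (adjusted p = 0.0531) or control replicate 2 (0.0571). PLEOSDRAFT_1094120, numbered as the first enzyme of the shikimate route, was at 633, 154 and 187 FPKM in control and 64.5, 40.8 and 112 FPKM with BBP (-2.12 ± 0.567, adjusted p = 0.0295). Control replicate 1 was far above the other controls, and the gene was not called without it (adjusted p = 0.0586), without BBP replicate 1 (0.0894) or without BBP replicate 2 (0.0835).

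Some highly expressed genes without annotation moved with BBP. PLEOSDRAFT_1090510 was at 2205, 2341 and 3727 FPKM in control and 5632, 4426 and 4871 FPKM with BBP (0.97 ± 0.195, adjusted p = 0.00918), and the groups did not overlap. PLEOSDRAFT_1089609, the most abundant gene that rose, was at 9344, 8767 and 10619 FPKM in control and 15634, 10094 and 15571 FPKM with BBP (0.63 ± 0.183, adjusted p = 0.0399). Its BBP replicate 2 lay below control replicate 3, and it was called only in the full model and without BBP replicate 2 among the leave-one-out fits, with adjusted p between 0.00723 and 0.133. The laccase subunit gene PLEOSDRAFT_1067572, chosen after its values were seen, stood at 198, 153 and 45.7 FPKM in control and 432, 195 and 321 FPKM with BBP (1.33 ± 0.476, adjusted p = 0.079) and was not called. It was called without control replicate 1 (adjusted p = 0.0335), and the adjusted p ran up to 0.218 over the leave-one-out fits.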
